A study of Homo sapiens with 9 samples.

Results

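The GADD45 family has 3 genes, GADD45A, GADD45B and GADD45G, which were followed here over 9 arrays of LNCaP cells. The members were chosen by name, as every probe set of the array annotated to exactly 1 of these symbols. This gave 6 of the 54675 probe sets, 1 for GADD45A, 4 for GADD45B and 1 for GADD45G, and 3 of the 19775 genes measured. All 6 passed the filter on low values used for the tests.

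GADD45 proteins are small acidic nuclear proteins that carry no enzyme activity and act by binding others. They bind the replication clamp PCNA, the cell-cycle inhibitor p21 and the mitotic kinase CDK1, and they switch on the kinase MAP3K4, which lies upstream of p38 and JNK. They also take part in active DNA demethylation through excision repair. GADD45A is a classic p53 target with a p53 site in the third intron, GADD45B (first called MyD118) answers to NF-kB and TGF-beta signals, and GADD45G (first called CR6) is induced by cytokines and is often silenced in tumours.

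LNCaP is an established, androgen-dependent human prostate cancer line. The inhibitor series has 1 array for each of 5 conditions. Cells given 100 µM etoposide 2 h before 100 nM dihydrotestosterone (DHT, 16 h) are called etoposide, and those given 100 µM merbarone in the same way are called merbarone. The other conditions are DHT alone, steady state (10% fetal bovine serum, not deprived) and deprived cells, which had 48 h in 5% charcoal-stripped serum with no DHT. All cells but the steady-state ones were deprived in this way. The shRNA series used cells that received a GFP vector with shRNA to TOP2B (sh-TOP2B) or sh-control by transfection, were deprived, got DHT or vehicle, and were sorted for GFP, with 1 array for each of the 4 combinations. Both compounds act on topoisomerase II, which lets one DNA duplex pass through another. Etoposide is a poison that stabilises the enzyme on broken DNA, and merbarone is a catalytic inhibitor. A single line, a single dose of each compound and 1 array a condition limit what the values can show, and no array gave either compound without DHT.

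GADD45A had no entry in the set of RefSeq promoters that was searched, so its promoter is not analysed here. The promoters of GADD45B and GADD45G, the 2 members with an entry, are shown. They are the 250 bases before the RefSeq start of each gene, at chr19:2475877-2476126 and chr9:89604762-89605011 (GRCh38.p14, plus strand), 5′ to 3′. GADD45A lies on chromosome 1 (67685201 to 67688334 in GRCh38.p14). Capitals mark matches to a list of 10 short motifs, searched on both strands.

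GADD45B: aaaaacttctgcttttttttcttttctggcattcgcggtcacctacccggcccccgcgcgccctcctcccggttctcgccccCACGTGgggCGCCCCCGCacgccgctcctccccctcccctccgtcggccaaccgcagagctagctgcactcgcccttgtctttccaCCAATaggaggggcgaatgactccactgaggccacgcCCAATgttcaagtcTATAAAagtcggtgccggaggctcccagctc
GADD45G: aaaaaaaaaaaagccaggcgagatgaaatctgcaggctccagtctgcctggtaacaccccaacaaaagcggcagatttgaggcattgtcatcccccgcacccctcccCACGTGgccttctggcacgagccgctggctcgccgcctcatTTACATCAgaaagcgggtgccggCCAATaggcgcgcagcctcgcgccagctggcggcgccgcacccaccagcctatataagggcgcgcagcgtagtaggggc

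Both windows hold a palindromic E-box, written CACGTG, 168 bases before the start of GADD45B and 143 before that of GADD45G. Both also hold the CCAAT box, written CCAAT, at 82 and 45 bases in GADD45B and at 79 in GADD45G. Of all 35116 promoters of the table, 6.34% hold the E-box, 32% the CCAAT box and 1.93% both. The GADD45B window holds the letters TATAAA of the TATA box (in 10.7% of promoters), which are not in the GADD45G window, though other forms of the box were not searched. GADD45B alone has a match to the EGR1 motif on the minus strand (GCGNGGGCG, 8.41%), and GADD45G alone to the C/EBP-ATF element on the minus strand (TGATGNAA, 3.14%). Neither window holds the octamer (ATTTGCAT, 1.63%), the core of the cAMP response element (TGACG, 21.2%), the AP-1 site (TGANTCA, 6.57%), the NF-kB motif as searched (GGANTTTCC, 1.45%) or the GC box (GGGCGG, 42.6%). No match overlapped another. A match is a description of letters, not a bound site.

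Levels are on the log2 RMA scale, where 1 unit is a doubling, and every difference below is in the same unit, followed by its standard error (SE) from limma. Dim means under the array median, which was 5.61 to 5.72. Levels are compared between arrays for 1 probe set, never between genes. The arrays of a series correlated at 0.951 to 0.995 over all probe sets and those of different series at 0.880 to 0.916. The 3' minus 5' difference of the beta-actin control probe sets was 0.376 to 0.697 on the inhibitor-series arrays and 2.38 to 3.09 on the shRNA-series arrays. Of 7 luminal markers of LNCaP measured, none was dim except KLK3, the gene of prostate-specific antigen, with merbarone. Of 8 markers of other cell types, 4 to 6 were dim on each array, and the leukocyte gene PTPRC, the stromal gene DCN and the neuroendocrine gene CHGA were dim on all 9. Others of the same list were not: the stromal collagen gene COL1A1 was above the median on all 9 (8.05 to 9.63), and the neuroendocrine gene SYP was dim on 2.

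**Figure D1:**
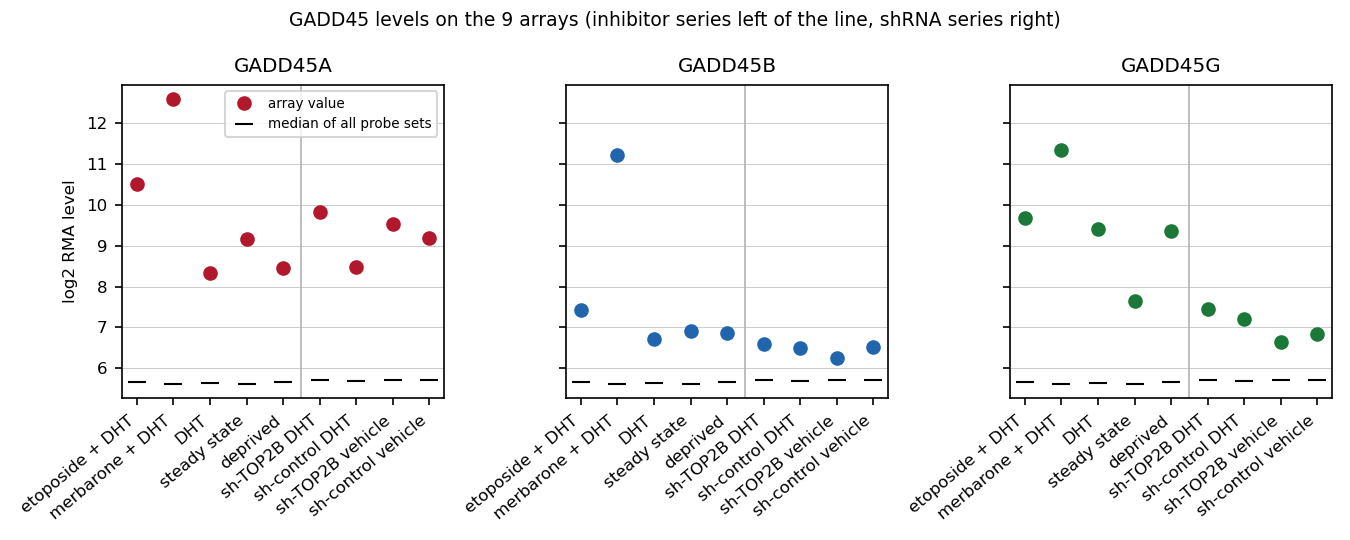
Log2 RMA level of each GADD45 gene (dots, y axis) on the 9 arrays (x axis, 1 array a group), with the median of all probe sets of the array as a dash. The inhibitor series is left of the vertical line and the shRNA series right of it. The merbarone array holds the highest level of all 3 genes, and GADD45G is lower on steady-state and shRNA-series arrays than on deprived and DHT arrays.

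GADD45A, the p53-responsive member, stood at 10.52 with etoposide, 12.59 with merbarone, 8.33 with DHT, 9.17 in steady state and 8.45 in deprived cells. On the shRNA-series arrays it was 9.82 in sh-TOP2B with DHT, 8.48 in sh-control with DHT, 9.52 in sh-TOP2B with vehicle and 9.19 in sh-control with vehicle. The merbarone array was highest and the etoposide array next. The gap between these was 6.44 times the SE of a difference of 2 arrays (0.32). From the fourth level down, no neighbours in the order differed by more than 1.05 SE except steady state and sh-control with DHT (2.14 SE).

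GADD45B, read on its probe set of highest mean, stood at 7.43 with etoposide, 11.22 with merbarone, 6.72 with DHT, 6.92 in steady state and 6.86 in deprived cells. In the shRNA series it was 6.61 in sh-TOP2B with DHT, 6.49 in sh-control with DHT, 6.26 in sh-TOP2B with vehicle and 6.52 in sh-control with vehicle. A single array, merbarone, stood apart from a flat set: the other 8 levels lay between 6.26 and 7.43. The gap below merbarone was 13.6 SE, and among the others no neighbours differed by more than 1.83 SE.

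GADD45G stood at 9.68 with etoposide, 11.33 with merbarone, 9.41 with DHT, 7.66 in steady state and 9.36 in deprived cells. In the shRNA series it was 7.44 in sh-TOP2B with DHT, 7.20 in sh-control with DHT, 6.65 in sh-TOP2B with vehicle and 6.84 in sh-control with vehicle. The levels fell into 3 tiers, merbarone alone, then etoposide, DHT and deprived cells, then steady state with the shRNA arrays. The gaps between the tiers were 5.84 and 6.01 SE, and no gap inside a tier was over 1.28 SE.

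The comparison of etoposide with merbarone asks whether a topoisomerase II poison and a catalytic inhibitor, at equal dose and time, left the family at different levels in DHT-treated cells. All 3 genes were lower with etoposide. GADD45B was 13.9-fold lower (-3.79 ± 0.28 SE, 95% interval -4.46 to -3.12, limma adjusted p = 0.000511), which was the fifth most negative difference among the 11865 genes tested. GADD45A was 4.21-fold lower (-2.07 ± 0.32, interval -2.84 to -1.30, adjusted p = 0.00481), and GADD45G was 3.15-fold lower (-1.66 ± 0.28, interval -2.33 to -0.98, adjusted p = 0.00673). Of all genes tested, 18.8% were called lower and 13.4% higher with etoposide. These are differences between 1 array and 1 array.

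The level of the luminal markers moved with the compounds as well. The summed log2 level of the 7 was 71.65 with etoposide, 65.31 with merbarone, 78.22 with DHT and 70.05 in deprived cells. That of the 8 markers of other cell types was 43.0, 42.96, 41.34 and 42.19 in the same order. Of the 7, 4 were called lower with merbarone than with DHT and the other 3 did not pass. The 4 were KLK3 (-5.40 with its dim level raised to the array median), SLC45A3 (-3.35), TMPRSS2 (-1.94) and HOXB13 (-1.53). Over all genes 16.3% were called lower. The part of either marker sum in the GADD45 differences was not tested. Fewer cells of a kind and less RNA per cell cannot be told apart in such bulk samples. Centring each array on the median level of 13 housekeeping genes moved the median of all genes to -0.32 for etoposide minus merbarone. The GADD45 differences were then -2.36, -4.08 and -1.94 for GADD45A, GADD45B and GADD45G. The gene at the median was YWHAZ with etoposide (12.58) and PGK1 with merbarone (12.30), while the median difference of the 13 genes themselves was 0.09. The shift thus depends on which gene sits in the middle, and the centred values are given only as a description. Calls were higher with etoposide in 41.6% of 3825 genes, and in 18.5% after this centring.

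The 4 probe sets of GADD45B did not all behave alike. In the test over 24658 probe sets, of which 24.4% were called, the one of highest mean (-3.79), the one named _x_at (-3.71) and the other named _s_at (-4.03) were each lower with etoposide, with limma adjusted p = 0.000656, 0.000556 and 0.000592. The fourth, with a plain _at name, stood at 4.21 with etoposide and 5.11 with merbarone. It was dim on both arrays, so it is given no difference (adjusted p = 0.255). This probe set was dim on all 5 inhibitor-series arrays and stood at 7.14, 6.75, 5.96 and 7.11 in the shRNA series, in the order sh-TOP2B with DHT, sh-control with DHT, sh-TOP2B with vehicle and sh-control with vehicle. It moved with the series, as the beta-actin 3' minus 5' difference did, and the part of RNA ends in this was not tested. Probe sets whose names end in _s_at or _x_at may also bind related transcripts.

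**Figure D2:**
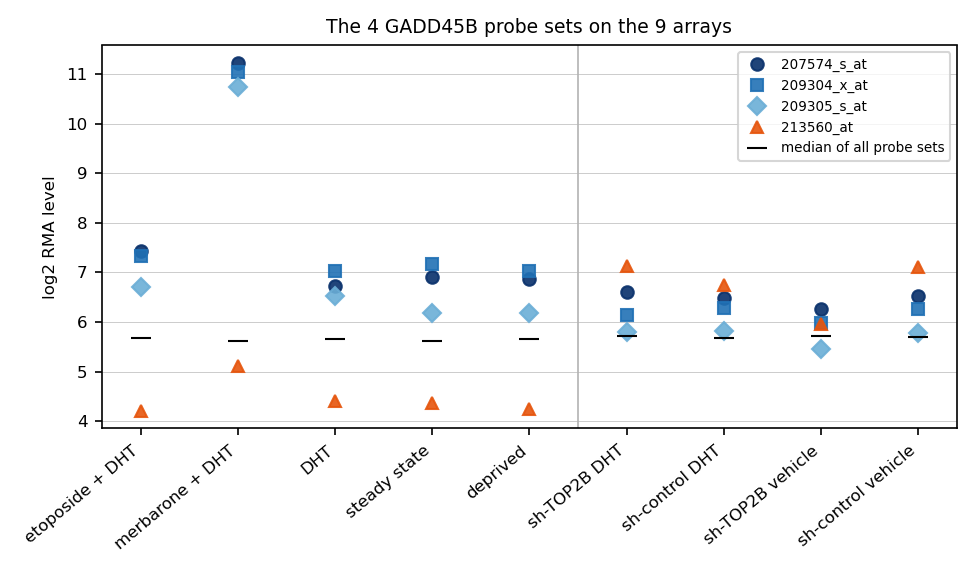
Log2 RMA level (y axis) of the 4 GADD45B probe sets on the 9 arrays (x axis), with the array median as a dash. The symbols of 3 probe sets rise together with merbarone, to between 10.73 and 11.22, while the plain _at probe set stays below the median on the inhibitor-series arrays and above it on the shRNA-series arrays.

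With etoposide against DHT alone, GADD45A was the only member that passed the test. It was 4.54-fold higher with etoposide (2.18 ± 0.32, interval 1.41 to 2.96, limma adjusted p = 0.0379), which was the seventh largest rise among 11865 genes. GADD45B was at 0.71 ± 0.28 (interval 0.04 to 1.38, adjusted p = 0.310) and GADD45G at 0.26 ± 0.28 (interval -0.42 to 0.94, adjusted p = 0.774), and neither passed. Of all genes 0.194% were called higher and 0.952% lower. Whether the members differ from each other in this response was not tested. The GADD45A call was lost in 5 of 12 alternatives with the difference at 2.18 or more, among them leaving out the sh-control pair (adjusted p = 0.0863) or the sh-TOP2B pair (adjusted p = 0.0624) from the fit that gives the spread. The GADD45B probe sets ranged from 0.17 to 0.71 apart from the dim one, and 1.14% of probe sets were called.

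Merbarone against DHT alone gave the largest changes of the family. GADD45B was 22.7-fold higher with merbarone (4.51 ± 0.28, interval 3.84 to 5.18, limma adjusted p = 0.000267), the third largest rise among 11865 genes. GADD45A was 19.1-fold higher (4.26 ± 0.32, interval 3.48 to 5.03, adjusted p = 0.000448), the fifth largest. GADD45G was 3.78-fold higher (1.92 ± 0.28, interval 1.24 to 2.60, adjusted p = 0.00386), at place 164 among the rises. Of all genes 15% were called higher and 16.3% lower, and of all probe sets 25.9% were called. Of the gene calls 47.9% were higher, against 73.1% after housekeeping centring, which moved the median of all genes to 0.29. The median difference of the 13 housekeeping genes themselves was -0.11. The 3 GADD45B probe sets that were not dim rose by 4.01 to 4.51. Both compound comparisons use the same DHT array, so their values are not independent. Against deprived cells the levels differed by much the same amounts, 2.07 for GADD45A, 0.57 for GADD45B and 0.32 for GADD45G with etoposide, and 4.14, 4.36 and 1.97 with merbarone, with no test.

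**Figure D3:**
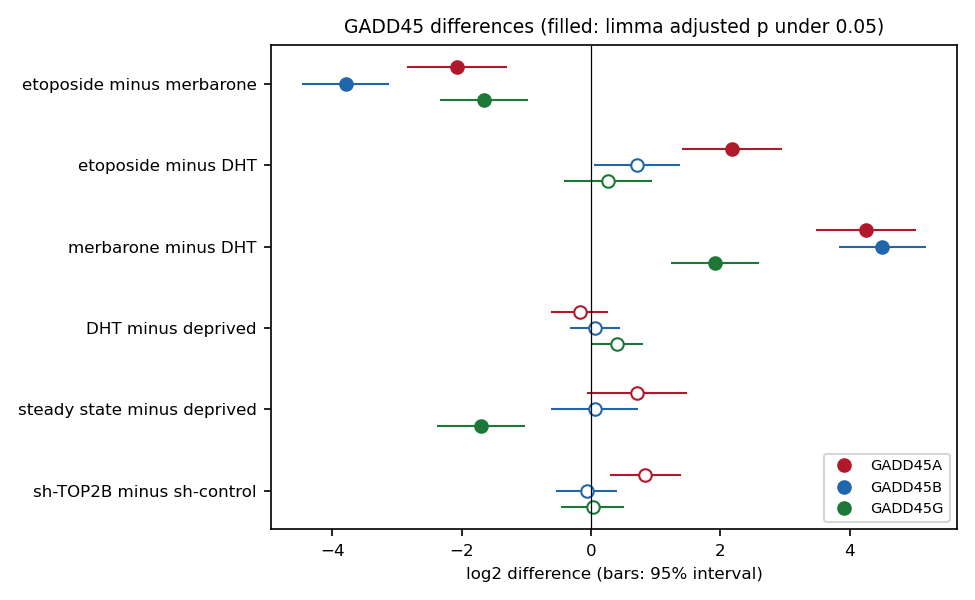
Log2 difference (x axis) of the 3 GADD45 genes in 6 comparisons (y axis), with 95% intervals from limma as bars. Filled dots passed an adjusted p of 0.05 over all genes. All 3 genes pass for etoposide minus merbarone (below 0) and merbarone minus DHT (above 0), GADD45A alone passes for etoposide minus DHT, and GADD45G alone passes for steady state minus deprived.

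The p53 targets give the setting of GADD45A. Of 25 listed, 22 were tested. With etoposide against DHT, 8 rose and 0 fell, with a median of 0.98 against -0.06 over all genes, of which 0.194% rose and 0.952% fell. They were led by TP53I3, a quinone oxidoreductase (2.70), SPATA18, a mitochondrial quality factor (2.62), MDM2, the ubiquitin ligase of p53 (1.84), and CDKN1A, which encodes p21 (1.77). With merbarone against DHT, 20 rose and 1 fell, with a median of 1.78 against 0 over all genes, of which 15% rose and 16.3% fell. The leading ones were PHLDA3, an inhibitor of AKT (2.86), the exonuclease gene AEN (2.84), the death receptor gene FAS (2.77) and the phosphatase gene PPM1D (2.62).

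Between the compounds the p53 targets fell into more than 1 kind. Of the 22, 10 were lower and 2 higher with etoposide, and 10 did not pass (median -0.53 against -0.03 over all genes, of which 18.8% were lower and 13.4% higher). AEN (-2.02 ± 0.15), the stress sensor SESN2 (-1.92 ± 0.25), PHLDA3 (-1.82 ± 0.19) and PPM1D (-1.65 ± 0.26) were lower with etoposide, in the range of GADD45A and GADD45G. MDM2 (-0.07, interval -0.32 to 0.18) and CDKN1A (-0.19, interval -0.66 to 0.27) did not pass, and neither interval reaches the -2.07 of GADD45A. TP53I3 (1.37 ± 0.38) was higher with etoposide.

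Of 24 listed regulators of the family, 22 were tested, and 10 were lower and 2 higher with etoposide than with merbarone (median -0.36), beside 18.8% lower and 13.4% higher over all genes. DDIT3, which encodes the stress factor CHOP (-3.26 ± 0.22), ATF3, a factor of the same stress pathway (-2.75 ± 0.21), the NF-kB subunit gene RELB (-2.11 ± 0.40) and the forkhead factor gene FOXO1 (-1.95 ± 0.19) were lower. Against DHT, merbarone gave 9 higher and 2 lower, beside 15% and 16.3% over all genes, led by DDIT3 (3.95), ATF3 (3.57), MYC, which represses GADD45A (-2.37), and RELB (2.19). Etoposide gave 0 higher and 1 lower, MYC (-1.31), beside 0.194% and 0.952% over all genes. Of 8 other growth arrest and differentiation genes tested, 5 were lower and 1 higher with etoposide than with merbarone. IRF1, an interferon regulatory factor (-3.40), and PPP1R15A, which encodes GADD34, the subunit that directs a phosphatase to eIF2 alpha (-2.66), were lower, and the adaptor gene MYD88 was higher (1.12).

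**Figure D4:**
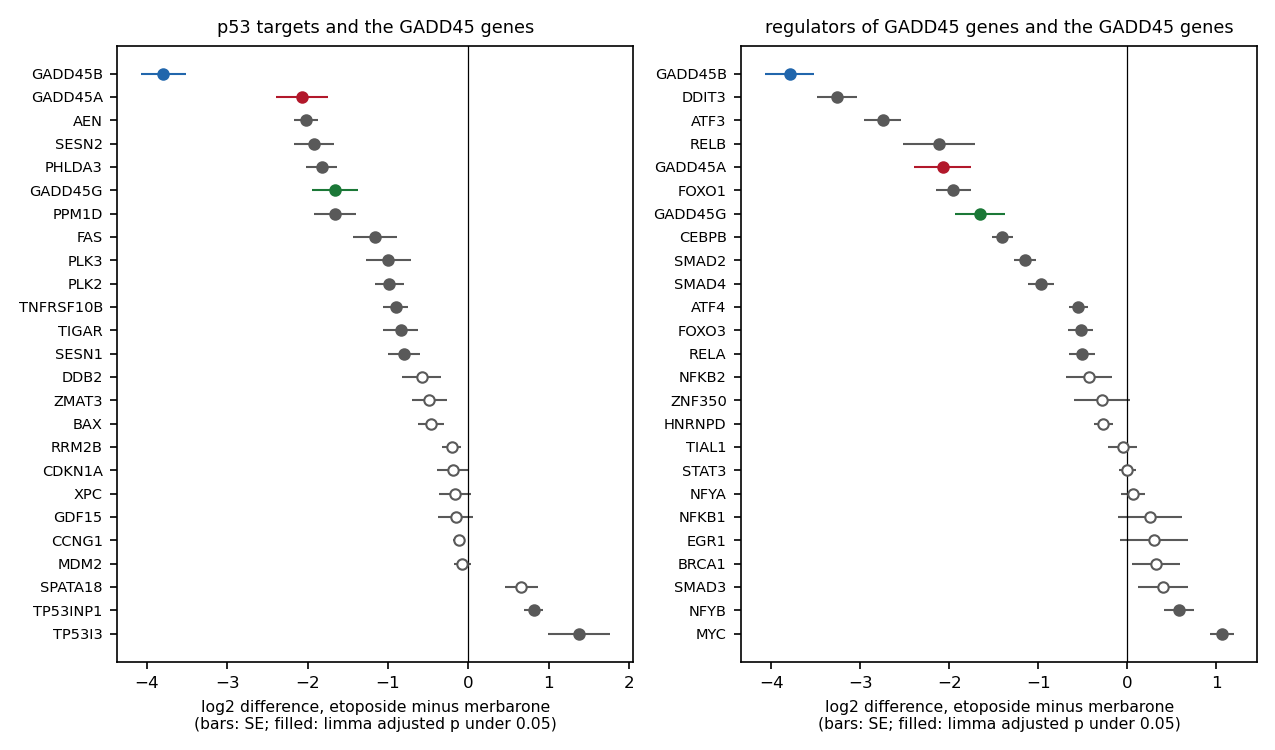
Log2 difference, etoposide minus merbarone (x axis), of the tested p53 targets (left) and of regulators of GADD45 genes (right), with the 3 GADD45 genes in colour. Bars are the SE and filled dots passed an adjusted p of 0.05. MDM2 and CDKN1A lie near 0, AEN, SESN2 and PHLDA3 lie near GADD45A, and DDIT3 and ATF3 are the regulators with the most negative values.

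Of 13 listed genes whose proteins bind GADD45, 11 were tested, with 2 higher and 2 lower with etoposide than with merbarone, beside 13.4% higher and 18.8% lower over all genes. CCNB1, the cyclin of CDK1, was lower (-0.87 ± 0.16), PCNA (0.48 ± 0.13) and CDK1 (0.46 ± 0.10) were higher, and the nucleolar gene NPM1 was lower (-0.24 ± 0.06). Against DHT, 2 of the 11 were higher and 1 lower with etoposide, beside 0.194% and 0.952% over all genes. With merbarone 2 were higher and 2 lower, beside 15% and 16.3%. CCNB1 fell by 1.68 with etoposide and by 0.81 with merbarone, and PCNA rose by 1.17 and 0.69 in the same order. CDKN1A rose by 1.77 with etoposide and by 1.97 with merbarone. CDK1 fell by 0.80 with merbarone. The kinase MAP3K4 did not pass in any of these comparisons.

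In the p38 and JNK pathway, 5 of 16 tested genes were lower and 0 higher with etoposide than with merbarone, beside the same 18.8% and 13.4%. The p38 delta gene MAPK13 (-1.13), the phosphatase gene DUSP1 (-0.66), ATF2 (-0.64) and the JNK gene MAPK8 (-0.58) led them. Against DHT, merbarone gave 4 higher and 2 lower, beside 15% and 16.3% over all genes. Etoposide gave 0 of either, beside 0.194% and 0.952%. Of 12 DNA demethylation and excision repair genes tested, 1 was higher (the nuclease gene ERCC4, 1.12) and 2 lower (the dioxygenase gene TET3, -0.90, and the damage-binding gene XPA, -0.73) with etoposide than with merbarone. Between the compounds, calls in either direction in these 3 lists were about as frequent as over all genes, so they are not read as results about the lists.

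DHT against no DHT, over the 3 pairs of backgrounds, asks whether androgen moves the family. None of the 3 genes passed, and 0.379% of all genes were called higher and 0.0169% lower. GADD45A differed by -0.12 in the inhibitor series, -0.71 in sh-control and 0.30 in sh-TOP2B cells (mean -0.18 ± 0.19 SE, 3 pairs, interval -0.62 to 0.27, limma adjusted p = 0.655). These 3 differences do not share a sign. GADD45B differed by -0.15, -0.03 and 0.34 in the same order (mean 0.06 ± 0.16, interval -0.33 to 0.44, adjusted p = 0.885). Its other _s_at probe set differed by 0.35, 0.05 and 0.34 and its _x_at one by -0.01, 0.02 and 0.16, and neither passed. The sign in the inhibitor series thus depends on the probe set. GADD45G was higher with DHT in all 3 pairs, by 0.05, 0.36 and 0.80 (mean 0.40 ± 0.16, interval 0.01 to 0.80, adjusted p = 0.249). Without the inhibitor-series pair the GADD45G difference was 0.58 and passed (adjusted p = 0.0486). In that setting 2627 of all genes were called, against 47 in the main fit.

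In serum-grown cells against deprived cells, GADD45G passed the test. It was 3.26-fold lower in steady state (-1.70 ± 0.28, interval -2.38 to -1.02, limma adjusted p = 0.00618). GADD45A was at 0.72 ± 0.32 (interval -0.05 to 1.49, adjusted p = 0.153) and GADD45B at 0.05 ± 0.28 (interval -0.62 to 0.72, adjusted p = 0.940), and whether the members differ from each other here was not tested. Of all genes 15.6% were called higher and 12.3% lower in steady state. GADD45A passed with arrays centred on housekeeping genes (0.96, adjusted p = 0.0351) and without the inhibitor-series pair in the fit (adjusted p = 0.0315). With centring its SE was not smaller (0.35), and that pass is not read as support. Of 11 partners of GADD45 tested, 5 were higher and 2 lower in steady state, beside those 15.6% and 12.3%. The mitotic kinase gene AURKA (3.89), CCNB1 (3.04), CDK1 (2.11) and PCNA (1.51) were higher. The kinase gene MAP3K5 was lower, at 8.21 against 9.99 in deprived cells. Of 22 regulators tested, 4 were higher and 5 lower. EGR1 was dim in steady state (-3.94 with its level raised to the array median, so at least that far below), while BRCA1 was 3.30 higher.

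The knockdown of TOP2B, which encodes topoisomerase II beta, asks whether less enzyme moves the family without a compound. The target itself stood at 10.01 with DHT and 10.09 with vehicle in sh-TOP2B cells, against 10.87 and 10.54 in sh-control cells (-0.66 ± 0.12, limma adjusted p = 0.0943). It was lower in both pairs and did not pass over all genes. Of all genes 1.02% were called higher and 0% lower in sh-TOP2B cells.

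GADD45A was higher in sh-TOP2B than in sh-control cells, by 1.34 with DHT and by 0.34 with vehicle. The mean of 0.84 ± 0.23 (2 pairs, interval 0.29 to 1.39) had an unadjusted p of 0.00870 and did not pass over all genes (limma adjusted p = 0.359). It passed with arrays centred on housekeeping genes (0.93, adjusted p = 0.0139) and with the inhibitor-series pair left out of the fit (0.84, adjusted p = 0.0174). With centring the SE was not smaller (0.25), so that pass came with another p-value scale and is not read as support. GADD45B (-0.07 ± 0.20, interval -0.54 to 0.41, adjusted p = 0.982) and GADD45G (0.02 ± 0.20, interval -0.46 to 0.50, adjusted p = 0.994) did not pass. Of 22 regulators tested 2 rose, ATF3 (1.02 ± 0.15, adjusted p = 0.0351) and CEBPB, a C/EBP factor gene (0.89 ± 0.09, adjusted p = 0.00502). Of the 8 other growth arrest and differentiation genes 1 rose, IRF1 (1.18 ± 0.16, adjusted p = 0.0248). Over all genes 1.02% were called higher and 0% lower. That 0 of 22 p53 targets passed is near this share and is not read as a result about them.

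The response to DHT in sh-TOP2B cells, set against that in the other 2 backgrounds, differed by 0.71 ± 0.33 for GADD45A (interval -0.10 to 1.52), 0.43 ± 0.32 for GADD45B (interval -0.36 to 1.22) and 0.59 ± 0.31 for GADD45G (interval -0.16 to 1.34). Each had a limma adjusted p = 1. All 3 values are positive and none passed, as 0% of the 11865 genes did (213 had an unadjusted p under 0.05).

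Between the series, sh-control cells stood against untransfected cells at -2.52 (vehicle against deprived) and -2.21 (both with DHT) for GADD45G, at 0.74 and 0.14 for GADD45A and at -0.35 and -0.23 for GADD45B. GADD45G was lower on all 4 shRNA-series arrays than on any of the 5 inhibitor-series arrays, while the levels of GADD45A overlapped. GADD45B, on its probe set of highest mean, was lower by a narrow margin (6.61 at most, against 6.72 at least). The margin was wider on its _x_at probe set (6.28 against 7.03) and on its other _s_at one (5.82 against 6.17). Its plain _at probe set went the other way, dim on the inhibitor-series arrays and above the median on the shRNA-series arrays. The share of all genes that separate the series in this way was not counted, so this is not read as particular to the family. Vector, sort, series and RNA ends all change together here and cannot be told apart, and no test was made.

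Genes with the nearest profile over the 9 arrays were found by the root mean square distance between log2 levels after each gene's mean was subtracted, among 11864 others. The arrays share 2 series and their treatments, and Pearson r is given as a description. For GADD45A, whose own root mean square deviation was 1.26, these were KLF10, a TGF-beta-induced repressor (distance 0.561, r = 0.933), the clock repressor gene CIART (0.564, r = 0.895), HSPBAP1 (0.575, r = 0.892), the cytokine gene LIF (0.580, r = 0.921) and the immediate early gene IER5 (0.602, r = 0.917). IER5 shared with GADD45A a rise on the etoposide array, at 10.47 with etoposide, against 8.83 with DHT.

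For GADD45B (own deviation 1.45) the nearest genes were NDRG4 (0.414, r = 0.959), CIART (0.442, r = 0.975), PPP1R15A (0.496, r = 0.968), the bZIP repressor gene NFIL3 (r = 0.949) and NSMAF (0.503, r = 0.951). CIART is on the lists of both GADD45A and GADD45B. GADD45G (own deviation 1.51) was nearest to CREBRF, a regulator of CREB3 (0.264, r = 0.986), ANKRD12 (0.361, r = 0.971), the gelsolin gene GSN (0.392, r = 0.983), the tyrosine kinase gene JAK1 (0.398, r = 0.968) and the receptor gene TNFRSF9 (0.411, r = 0.966).

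CREBRF followed GADD45G closely, at 9.95 with etoposide, 12.00 with merbarone, 9.51 with DHT, 8.02 in steady state and 9.55 in deprived cells, and between 7.03 and 7.54 in the shRNA series. Within the family, GADD45B was at place 20 among the genes nearest to GADD45A (0.703, r = 0.874), while GADD45G was at place 4767 (1.31, r = 0.569). GADD45G was at place 140 among those nearest to GADD45B (0.955, r = 0.793).

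**Figure D5:**
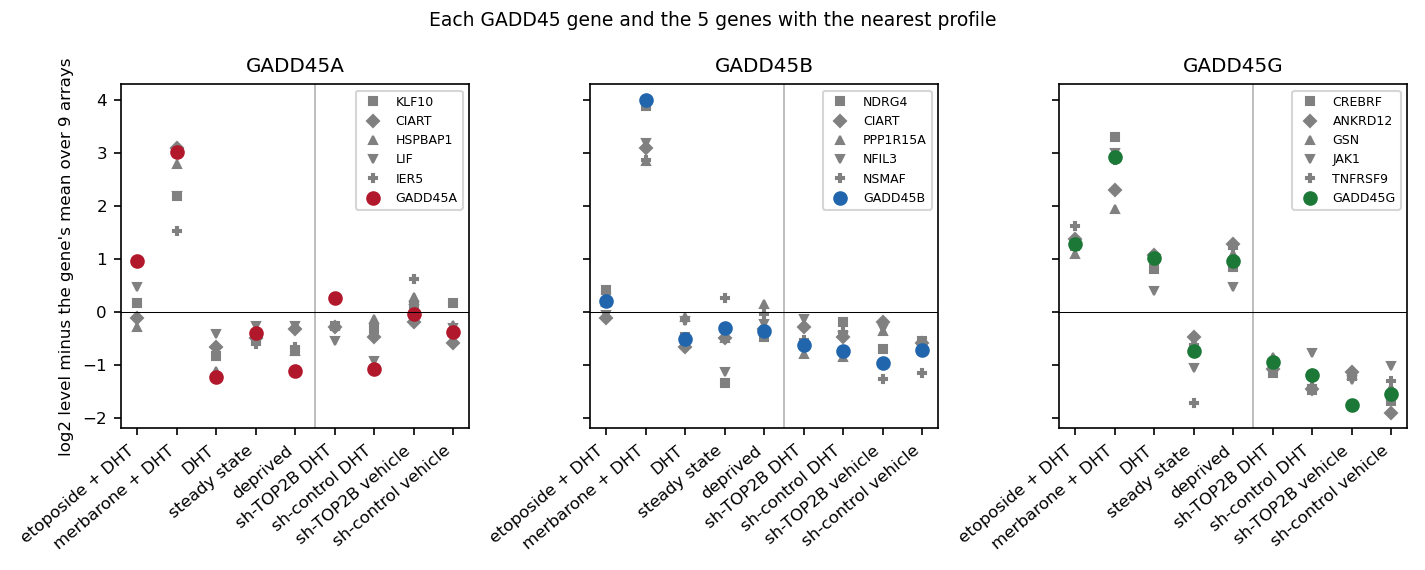
Log2 level minus the gene's mean over the 9 arrays (y axis) for each GADD45 gene (coloured dots) and the 5 genes nearest to it (grey symbols), by array (x axis). GADD45A and GADD45B share a peak on the merbarone array with their nearest genes, and GADD45G and its nearest genes are also higher with etoposide, with DHT and in deprived cells than in steady state and the shRNA series.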

How the data were processed

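Each of the 9 arrays (Affymetrix U133 Plus 2.0 design) is 1 column of log2 expression values deposited by the authors, made with RMA per the submitters' processing notes, which give no version. RMA makes the arrays' distributions alike, so a change shared by most genes is not visible. Probe sets were named from the platform annotation, where 41097 of 54675 had exactly 1 symbol, and symbols were checked by gene ID against RefSeq (GRCh38.p14). Each of 19775 genes was taken as its probe set with the highest mean, and the 11865 genes above the 40th percentile of these means were tested.

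Tests were two-sided and made in R 4.3.3 with limma 3.58.1, with Benjamini-Hochberg adjustment over all tested genes and a threshold of 0.05. The spread of each gene came from an additive fit to the 3 pairs of arrays without and with DHT (2 residual and 4.56 prior degrees of freedom, intensity trend). Single arrays were compared directly, on the assumption of equal spread. No condition was repeated, so this spread is how far the DHT difference varied among the 3 backgrounds. It mixes differences between backgrounds in the response to DHT with spread between cultures and arrays, which may be technical. The sh-control and sh-TOP2B pairs are of the shRNA series, so the SEs and p-values of inhibitor-series arrays rest largely on the other series. The labels name no separate cultures within a group. The code was checked on simulated arrays. The members and gene lists were chosen with earlier results of these data known. The genes named were the members, up to 4 genes of each list with the largest difference past the test, TOP2B and the 5 nearest profiles of each member. MDM2, CDKN1A, TP53I3 and MYD88 between the compounds, MAP3K4, and PCNA in steady state were picked with values known. Some genes of the lists are not reported here.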

Additional observations from a re-analysis of the deposited data

How the results depend on the processing

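The spread behind each call comes from 3 DHT pairs. A difference of 2 single arrays is taken directly from their levels. The trend, the filter and the pairs left out can therefore change its call but not its value or direction. GADD45A and GADD45G kept direction and call for etoposide minus merbarone (11 alternatives) and merbarone minus DHT (12). So did GADD45B, except with plain _at probe sets only, where its dim probe set gave -0.90 for etoposide minus merbarone (adjusted p = 0.25), 0.70 for merbarone minus DHT (0.378) and -0.20 for etoposide minus DHT (0.946). Its levels there lie below the array median, so these values are no measured differences. The stricter filter left GADD45B out. GADD45A for etoposide minus DHT stayed at 2.18 and lost its call without the intensity trend (adjusted p = 0.169), without the filter (0.0654), with dim levels raised (0.0503) and without either shRNA pair. The 136 genes called for etoposide minus DHT became 0 without the trend (1724 had an unadjusted p under 0.05 with it), 68 without the filter, 227 against the fitted level, and 4 to 1336 when a pair was left out (4 without sh-control, 29 without sh-TOP2B, 1336 without the inhibitor series). The 47 called for DHT minus deprived became 5 without the trend, 24 without the filter, 24 with dim levels raised, 461 with housekeeping centring, and 1 to 2627 when a pair was left out (1 without sh-control, 7 without sh-TOP2B, 2627 without the inhibitor series). Leaving out a pair moved the DHT difference of GADD45A between -0.41 and 0.089 (0.089 without sh-control), of GADD45B between -0.086 and 0.16 (-0.086 without sh-TOP2B) and of GADD45G between 0.21 and 0.58. Housekeeping centring, which used the median level of the 13 genes and not their changes, gave 2293 calls for merbarone minus DHT. It gave 2108 for steady state minus deprived. Centring gave GADD45A 0.96 in steady state and 0.93 in sh-TOP2B cells, both past the test, and GADD45B 0.020 in sh-TOP2B cells. For etoposide minus merbarone it gave the 3 genes larger SEs (0.43 in place of 0.28 for GADD45B) but smaller adjusted p-values. The passes with centring are thus on another p-value scale and are not read as support. Without the inhibitor-series pair GADD45A passed at 0.72 in steady state and at 0.84 in sh-TOP2B cells, where 315 genes were called against 121. Centring moved the share of calls that were higher to 70.4% in place of 55.9% for steady state minus deprived, and to 58.1% in place of 95.7% for DHT minus deprived. The causes were not tested. The DHT and knockdown tests already compare arrays within pairs, and the labels give no replicate numbers that could pair other arrays. With 1 array a condition, the number of arrays limits the precision.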
